A study of Homo sapiens with 24 samples.

Results

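The genes described here encode the translation initiation factors (eIFs), and they include EIF3F, the eIF3 subunit whose mRNA fell most among them when LSM14A was depleted. They are the protein-coding genes of the deposited count table whose symbol begins with EIF and a digit from 1 to 6. EIF4ENIF1, EIF1AY and the EIF2AK kinases were left out. The rule finds 50 genes of 19086 protein-coding genes, and 47 of the 50 held enough counts to be tested in every comparison. The labels and the methods name the cells as A2058, an established human melanoma cell line, while a legend of the study names another melanoma line, A375, for the translation efficiencies, and the labels are followed here. There were 24 libraries: 12 of total RNA and 12 of RNA from the heavy polysomes of a sucrose gradient.

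The study asked which mRNAs change on polysomes when LSM14A is depleted, with and without replication stress. Cells received a control siRNA (siCTRL) or siRNA against LSM14A (siLSM14A, 20 nM of each siRNA in the methods). Some cultures then received hydroxyurea (HU, 10 mM for 2 h) while others stayed untreated (NT). HU depletes nucleotides by inhibiting ribonucleotide reductase. LSM14A is an RNA-binding protein of cytoplasmic processing bodies and the human ortholog of yeast Scd6. Each of the 4 conditions had 3 replicates in each kind of RNA, and the labels do not say what separates them, so p-values measure the spread between these samples. All siLSM14A libraries carry the same siRNA label, and the methods name a pool of siRNAs for another experiment. An effect of the siRNA on other mRNAs cannot be told apart from an effect of the loss of LSM14A. LSM14A mRNA itself changed by -3.49 (SE 0.075, NT) and -3.67 (SE 0.0871, HU) on the log2 scale in total RNA, and by -4.38 and -3.95 in polysomal RNA. The melanocyte gene SOX10 had a median of 672 counts per 10 to the power of 6 (CPM) and DCT of 872 CPM. These were the highest of the melanoma and neural crest genes read. PMEL was at 398, S100B at 343, AXL at 193, S100A1 at 167 and MITF at 134 CPM. TYR was at 87.5, NGFR at 50.4 and MLANA at 8.89 CPM. The leukocyte marker PTPRC was at 0.105 CPM and the keratinocyte marker KRT5 at 0.

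Initiation begins when eIF2 brings the initiator tRNA to the small ribosomal subunit. eIF1, eIF1A, eIF3 and eIF5 assemble with it, and eIF3, the largest factor, bridges the ribosome and the mRNA. The cap of the mRNA is bound by eIF4E, held on the scaffold eIF4G with the helicase eIF4A. EIF3F encodes an MPN-domain subunit of eIF3. EIF4E2 encodes 4EHP, a relative of eIF4E that binds the cap without eIF4G and represses translation of the mRNAs it binds.

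A word of 7 bases, AACGGAG, marks some of these mRNAs, and its sites are shown because EIF3F and EIF4E2 both carry 1. The word comes from an earlier examination of total RNA in these same libraries, where 3' UTRs that hold it went with low levels, so what follows describes that choice and does not test it. Sites were read on the mRNA strand of the Gencode transcripts of hg19, each with 12 bases before the word and 11 after it, and the word is in capitals.
EIF3F, 3' UTR in exon 8 of 8, 124 bases after the last coding base (chr11:8017681-8017710, plus strand): gtgactctaataAACGGAGcctaccttttg
EIF4E2, 3' UTR of 4 of its 11 coding transcripts and not of the canonical one (chr2:233448252-233448281, plus strand): tttgccagtggaAACGGAGcagaggctatg
EIF2B1, coding sequence in exon 7 of 9 of the canonical transcript and 3' UTR of another coding transcript (chr12:124109337-124109366, minus strand): ggagttgttgaaAACGGAGgaattattaac
EIF5B, coding sequence in exon 10 of 24, spliced across an exon junction (word at chr2:99993086-99993092, plus strand): atgacaaagcaaAACGGAGgattgagaaac
EIF3B, coding sequence in exon 10 of 19 (chr7:2409255-2409284, plus strand): cattggcagaagAACGGAGactacttgtgt
CDC123, a factor that assembles eIF2 and is no eIF, 3' UTR in exon 13 of 13 (chr10:12292478-12292507, plus strand): cctggggaaaaaAACGGAGggactttgcta
EIF4G1 also holds the word in its coding sequence, and the other 44 of the 50 genes showed none in the coding transcripts read.

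EIF3F (ENSG00000175390) lies on the plus strand of chr11 from 7991798 to 8023409. In total RNA of untreated siCTRL cells it stood at 194, 208 and 212 CPM in the 3 replicates, and in untreated siLSM14A cells at 111, 99.0 and 96.3 CPM. Upon HU it stood at 212, 211 and 208 CPM with siCTRL and at 101, 104 and 105 CPM with siLSM14A. All 6 siLSM14A libraries of total RNA were below all 6 siCTRL libraries, with no overlap. In bulk RNA, less mRNA per cell and fewer cells that hold it cannot be told apart.

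EIF3F fell by 1.02 on the log2 scale in untreated cells (SE 0.0659, adjusted p = 2.97e-05, edgeR quasi-likelihood test with Benjamini-Hochberg adjustment over all tested genes). Upon HU it also fell by 1.02 (SE 0.051, edgeR adjusted p = 2.94e-07). In both tests it had the 12th lowest log2 change of all genes tested. The HU effect on EIF3F was 0.042 (SE 0.0528) in siCTRL cells and 0.039 (SE 0.0645) in siLSM14A cells, neither called. The interaction of HU and siRNA was -0.0029 (SE 0.0817, edgeR adjusted p = 0.9995).

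On polysomes, EIF3F stood at 219, 225 and 225 CPM in untreated siCTRL cells and at 94.3, 136 and 121 CPM in untreated siLSM14A cells. Upon HU the values were 221, 248 and 227 CPM with siCTRL and 97.5, 107 and 113 CPM with siLSM14A. Here too all siLSM14A libraries were below all siCTRL libraries. The change was -0.92 in untreated cells (SE 0.169), which did not pass (unadjusted p = 0.000254, edgeR adjusted p = 0.522), and -1.19 upon HU (SE 0.143), which passed (edgeR adjusted p = 0.00611). Without siCTRL HU replicate 2 the HU value was -1.10 (adjusted p = 0.0536), and without siLSM14A HU replicate 1 it was -1.14 (adjusted p = 0.130). DESeq2 called the change of untreated cells as well (adjusted p = 0.0157).

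**Figure D1:**
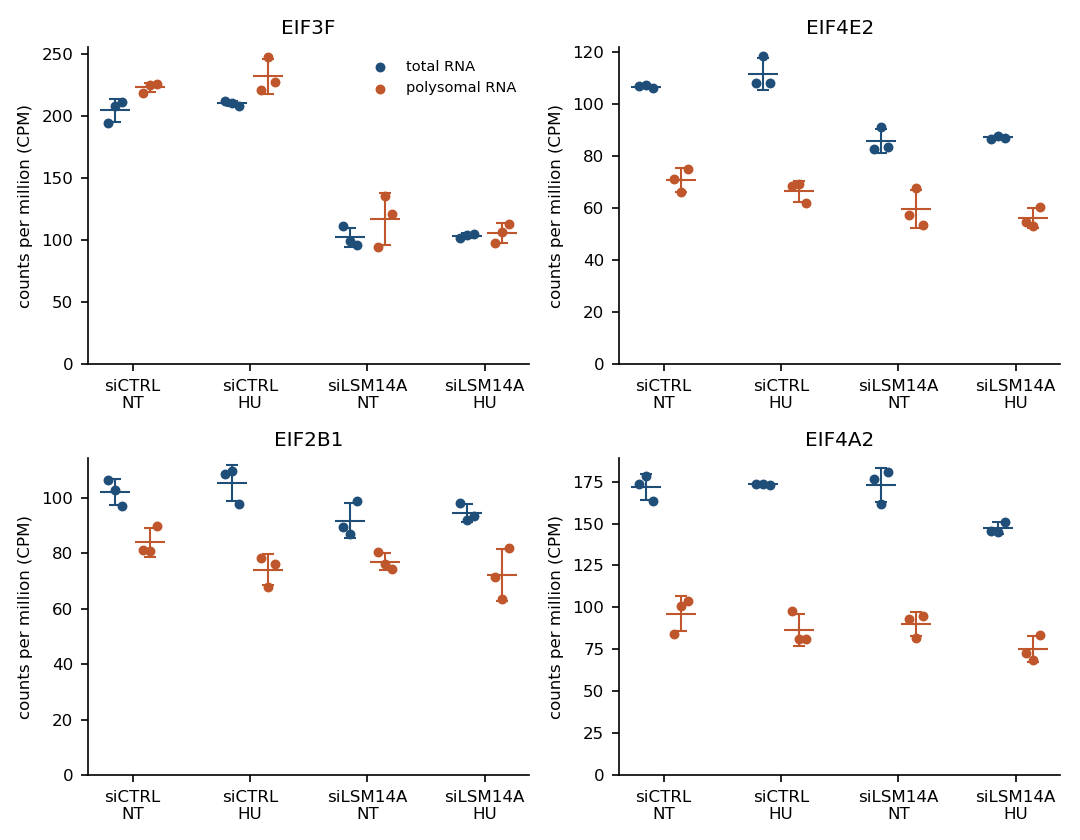
CPM of EIF3F, EIF4E2, EIF2B1 and EIF4A2 in total (blue) and polysomal (orange) RNA of the 4 conditions. Points are replicates, the wide bar the mean and the whiskers the SD (n = 3). EIF3F total RNA lies between 194 and 212 CPM in siCTRL and between 96.3 and 111 CPM in siLSM14A libraries.

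The ratio of polysomal to total RNA of EIF3F was not called as changed on knockdown. Single ratios join the total and polysomal library of the same replicate number, which the deviations of the libraries bear out only in part (correlation -0.488 to 0.425 over 12 pairs), so the SDs that follow rest on that number. In siCTRL cells the log2 ratio was 0.12 ± 0.04 untreated and 0.14 ± 0.09 upon HU (mean ± SD, n = 3 each). In siLSM14A cells it was 0.18 ± 0.37 untreated and 0.03 ± 0.08 upon HU (n = 3 each). The siLSM14A NT group was the widest, from -0.23 in replicate 1 to 0.46 in replicate 2, it overlapped every other group, and it is also the group in which replicates 1 and 3 deviated in opposite directions in the 2 kinds of RNA (-0.488 and -0.316). The ratio changed by 0.10 (SE 0.182) on knockdown in untreated cells and by -0.18 (SE 0.135) upon HU, and neither passed (edgeR adjusted p = 0.9998 and 0.778). These tests do not use the pairing. The value of untreated cells turned to -0.06 without siLSM14A NT replicate 2 and was 0.30 without siLSM14A NT replicate 1. The HU value was -0.33 with GC correction and -0.09 without siCTRL HU replicate 2, and no alternative called it (lowest adjusted p 0.472 in edgeR).

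EIF4E2 (ENSG00000135930, chr2:233415369-233448354, plus strand) was the other initiation factor that fell. Its total RNA stood at 107, 107 and 106 CPM in untreated siCTRL cells against 82.8, 91.1 and 83.3 CPM with siLSM14A. Upon HU it stood at 108, 119 and 108 CPM against 86.7, 87.8 and 86.8 CPM. The siLSM14A libraries were below the siCTRL libraries in both treatments, a smaller step than that of EIF3F. The log2 change was -0.33 untreated (SE 0.0564, edgeR adjusted p = 0.0328) and -0.35 upon HU (SE 0.0571, edgeR adjusted p = 0.0107). In 4 of the 6 fits that left out a library of untreated cells it no longer passed. These were the fits without siCTRL NT replicate 1, 2 or 3, with adjusted p-values of 0.0740, 0.132 and 0.209, and without siLSM14A NT replicate 1, at 0.141. In untreated cells the call was also lost with the replicate number as a block and with all 24 libraries in 1 fit (highest adjusted p 0.794 in edgeR). Upon HU the fit without siCTRL HU replicate 2 gave 0.0772, and that of all 24 libraries gave 0.732. On polysomes EIF4E2 changed by -0.24 (SE 0.161) and -0.30 (SE 0.139), neither called, with adjusted p of 0.9998 and 0.739 in edgeR.

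Among the 47 tested genes, 2 were called lower and 0 higher in total RNA of untreated cells, where 0.566% of all genes were called. Upon HU again 2 were called lower and 0 higher, against 0.802% of all genes. With the replicate number as a block, which the samples' deviations warrant in this comparison, 5 were called, as EIF2B1, EIF4A2 and EIF5A2 joined EIF3F and EIF4E2, while 855 genes were called in all. On polysomes 0 were called in untreated cells (0.0162% of all genes, 1 initiation factor and 242 of all genes at an unadjusted p under 0.05, and 1 initiation factor with DESeq2) and 1 upon HU (0.0653% of all genes). Counted by levels, 2 of 47 had all siLSM14A libraries below all siCTRL libraries of total RNA in both treatments, against 1.98% of all genes, and 0 had them above, against 2.2%. On polysomes the counts were 1 below (0.656% of all genes) and 0 above (0.205%).

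**Figure D2:**
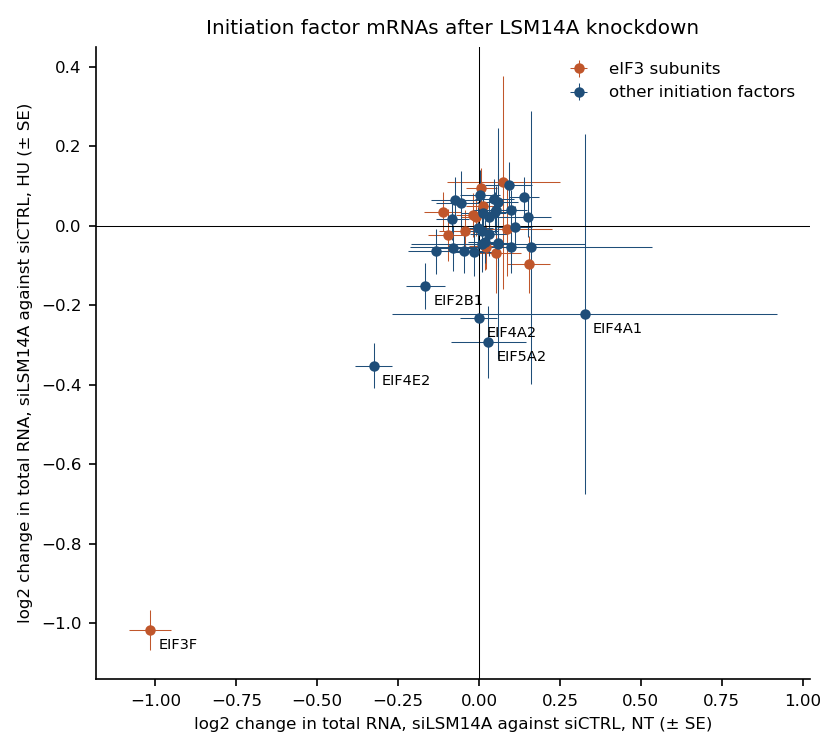
Log2 change of total RNA on LSM14A knockdown in untreated (x) and HU-treated (y) cells for 47 initiation factors, with standard errors as bars. EIF3F lies at -1.02 on both axes, apart from the rest, and EIF4E2 at -0.33 and -0.35. Other genes reach 0.33 on the x axis and -0.29 on the y axis.

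The other eIF3 subunits showed no change of that size. Of 13 other EIF3 genes, 0 were called in any of the 15 tests. No test called more than 0.802% of all genes, so that count alone says little. In total RNA of untreated cells their log2 changes ran from -0.11 (EIF3K) to 0.15 (EIF3J), with a median of 0.013, against -0.00086 over all genes. Upon HU they ran from -0.097 (EIF3J) to 0.11 (EIF3CL), with a median of -0.0083. EIF3K and EIF3J had opposite signs in the NT and HU tests. The smallest unadjusted p among them was 0.0438 untreated and 0.0720 upon HU. EIF3H, the MPN-domain partner of EIF3F in the complex, changed by 0.023 and -0.054. EIF3M, another subunit, changed by 0.017 and -0.050. EIF3E, which like EIF3F and EIF3H is known as a TOP mRNA, beginning with a pyrimidine tract, changed by 0.054 and -0.067. Of 8 tested mRNAs of a TOP list, which also holds elongation factors, EIF3F alone was called lower in total RNA. As 0.566% (NT) and 0.802% (HU) of all genes were called, a list of that size would hold few calls.

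On polysomes the 13 other subunits varied more, from -0.35 (EIF3C) to 0.32 (EIF3J) untreated and from -0.46 (EIF3CL) to 0.55 (EIF3A) upon HU. EIF3A, the largest subunit, shows where that spread lay. It stood at 176, 267 and 534 CPM on polysomes of untreated siCTRL cells and at 418, 182 and 168 CPM with siLSM14A, while total RNA lay between 403 and 503 CPM. Upon HU it stood at 146, 136 and 482 CPM against 390, 231 and 529 CPM. The high values were 1 or 2 replicates of each group, and the groups overlap. In the polysomal libraries with the high values, the genes' deviations from their mean over all polysomal libraries were set against exon GC content. The Spearman rho was -0.754 in siCTRL NT replicate 3 and -0.807 in siLSM14A NT replicate 1. With siLSM14A and HU it was -0.398 in replicate 1 and -0.672 in replicate 3, but in siCTRL HU replicate 3 it was 0.144. The part of these trends in the result was not tested. EIF3C and EIF3CL are near-identical copies, and the counting may have lost or split reads that fit both, so their values are uncertain.

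**Figure D3:**
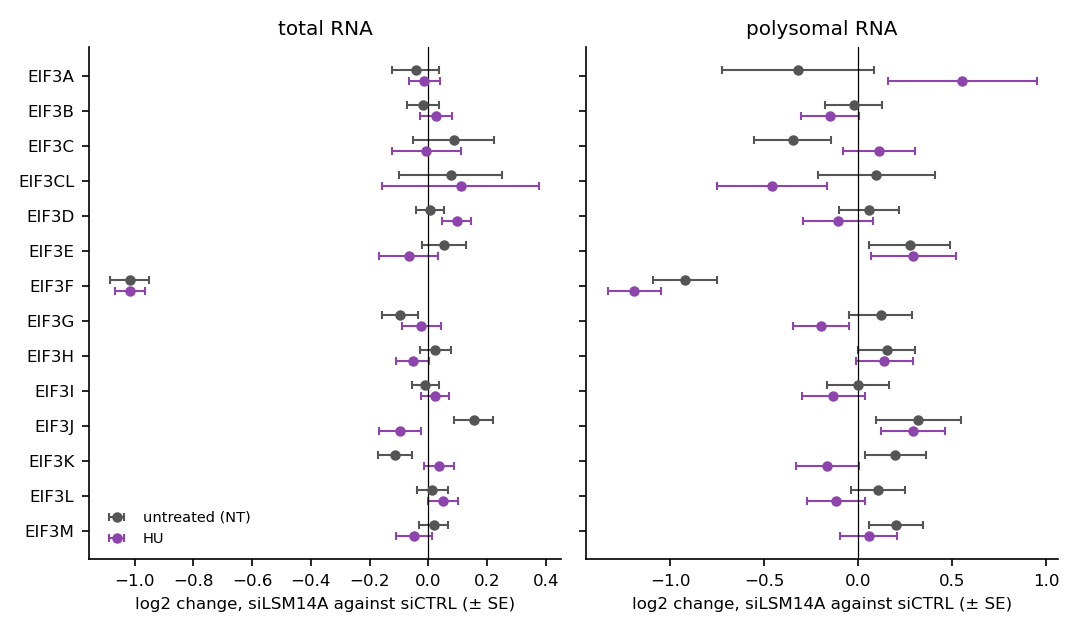
Log2 change on LSM14A knockdown of 14 eIF3 subunit genes in total and polysomal RNA, untreated (grey) and with HU (purple), with standard errors as bars. EIF3F is at -1.02 in total RNA and at -0.92 and -1.19 in polysomal RNA, and the total RNA of the other subunits stays between -0.11 and 0.15.

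Likeness to EIF3F was also measured by level across the 12 total RNA libraries, as a description. Genes with the highest Pearson correlation with EIF3F among 12665 tested included GTF3A (0.995), POLR2C (0.993), LSM14A (0.992) and IKZF4 (0.988). All 4 were lower with siLSM14A, and the libraries share that contrast. EIF4E2 ranked 33 (r = 0.950) and EIF2B1 ranked 330 (r = 0.727). The nearest other eIF3 subunit was EIF3G, at rank 2225 (r = 0.366), and the farthest EIF3D, at rank 11672 (r = -0.588). Of the 4, POLR2C and IKZF4 hold AACGGAG in the canonical 3' UTR. GTF3A holds it at 2 places in the coding sequence, and LSM14A at 1.

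Over all tested genes, LSM14A left out, 262 (2.12%) held AACGGAG in the canonical 3' UTR. Of these, 21 were called lower in untreated cells, 23 upon HU and 17 in both. Among 714 genes with it in the coding sequence and not in the 3' UTR, 7, 14 and 7 were called lower. Among 11294 genes with no such word in the canonical transcript, EIF4E2 included, 20, 31 and 13 were called lower. The word was chosen from total RNA of these same libraries, so these counts describe that choice and do not test it. The median log2 change, untreated and upon HU, was -0.059 and -0.058 with the word in the 3' UTR. It was -0.045 and -0.028 with it in the coding sequence and not the 3' UTR, and 0.0024 and 0.0025 with no word. Of the tested eIFs, 1 holds the word in the canonical 3' UTR, EIF3F, and 4 in the canonical transcript only in the coding sequence. Of those 4, EIF5B changed by -0.045 and -0.064, EIF3B by -0.019 and 0.027 and EIF4G1 by 0.0016 and 0.079 in total RNA, in untreated and HU-treated cells. The part of the word in these levels was not tested.

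EIF2B1, the alpha subunit of the eIF2B exchange factor that reloads eIF2 with GTP (ENSG00000111361, chr12:124104953-124118313, minus strand), is the fourth carrier in the coding sequence. Its total RNA stood at 106, 103 and 96.9 CPM in untreated siCTRL cells against 89.4, 86.7 and 98.7 CPM. Upon HU it stood at 108, 110 and 97.6 CPM against 97.9, 91.9 and 93.4 CPM. The groups overlapped in both treatments, and the changes of -0.17 (SE 0.0608) and -0.15 (SE 0.0574) did not pass (edgeR adjusted p = 0.360 and 0.441), though the second did with the replicate block (0.0225). The other 4 eIF2B subunits lay between -0.055 and 0.061 in both treatments. The eIF2 genes, whose product carries the initiator tRNA, lay between 0.019 and 0.16 untreated and between -0.055 and -0.0036 upon HU. EIF2S3B in that group had under 1 CPM and is close in sequence to EIF2S3.

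EIF4A2 encodes an RNA helicase of the cap complex, and its total RNA was lowest in siLSM14A cells with HU. Its total RNA stood at 174, 178 and 163 CPM in untreated siCTRL cells, 173, 174 and 173 CPM in HU-treated siCTRL cells and 177, 161 and 181 CPM in untreated siLSM14A cells. In siLSM14A cells with HU it stood at 146, 145 and 151 CPM. Knockdown changed it by -0.0015 untreated (SE 0.0578) and by -0.23 upon HU (SE 0.0499, edgeR adjusted p = 0.0603, and 7.34e-05 with the replicate block). HU changed it by -0.22 in siLSM14A cells (SE 0.058, unadjusted p = 0.00267, edgeR adjusted p = 0.855), and the interaction was -0.23 (SE 0.0734, unadjusted p = 0.00613, edgeR adjusted p = 0.9995). Both contrasts share the siLSM14A HU libraries. The knockdown change upon HU was also called with GC correction (adjusted p = 0.0422), with no filter on low counts (0.0446) and with DESeq2 (0.00438), and over all its alternatives the adjusted p ran from 7.34e-05 to 0.999996, the last with all 24 libraries in 1 fit. EIF4A2 hosts small nucleolar RNAs, and 89.6% of its exon bases belong to no other gene of its strand.

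The remaining cap-binding genes showed less. EIF4G2, a scaffold that lacks the eIF4E site, had the smallest p of the higher genes in untreated cells (0.14, SE 0.047, unadjusted p = 0.0133, edgeR adjusted p = 0.316). EIF4G1 and EIF4G3 changed by 0.0016 and 0.013, and upon HU the 3 scaffolds lay between 0.031 and 0.079. EIF4E, the cap-binding protein itself, changed by -0.016 and -0.065. EIF4EBP1 and EIF4EBP2, inhibitors that sequester eIF4E, changed by -0.13 and 0.098 untreated and by -0.064 and 0.039 upon HU. EIF4A1 was counted at 900 reads over 24 libraries, and 52.6% of its exon bases belong to no other gene of its strand, so its level is not that of the EIF4A1 mRNA. Upon HU the smallest p among the higher genes was that of EIF3D (0.096, SE 0.0489, unadjusted p = 0.0720, edgeR adjusted p = 0.637). EIF5A2, a low-abundance relative of EIF5A, changed by 0.029 untreated and -0.29 upon HU (SE 0.0902, edgeR adjusted p = 0.266).

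HU alone called 0 of 47 genes. In total RNA 0 of 12506 genes were called in siCTRL cells (0% of all genes, with 1 initiation factor at an unadjusted p under 0.05 and 1 gene with DESeq2) and 0 of 12497 in siLSM14A cells (0%, with 3 initiation factors). On polysomes 0 passed in either (0% of all genes, with 0 and 1 initiation factors at an unadjusted p under 0.05, and 259 and 107 of all genes). The interaction of HU and siRNA called 0 in each layer, with 3, 0 and 1 initiation factors at an unadjusted p under 0.05 in total RNA, polysomal RNA and the ratio. Over all genes these counts were 367, 134 and 244. DESeq2 called 0 initiation factors in all these tests, and so did the replicate block, which the deviations warrant for HU in siCTRL cells and under which 15 genes were called in total and 1 in polysomal RNA. In siCTRL cells the smallest p in total RNA belonged to EIF5A2 (0.25, SE 0.103, unadjusted p = 0.0288) and, among lower genes, to EIF4G1 (-0.043, SE 0.0644). In siLSM14A cells EIF3K had the smallest p of the higher genes (0.16, SE 0.0613, unadjusted p = 0.0204), after EIF4A2 on the lower side. On polysomes EIF4G1 changed by 0.38 (SE 0.217) and EIF2S3B by -0.69 (SE 0.452) in siCTRL cells. In siLSM14A cells EIF3C changed by 0.53 (SE 0.228) and EIF4A2 by -0.25 (SE 0.139). The adjusted p of all of these was above 0.85.

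The ratio of polysomal to total RNA called 0 of 47 genes in each of its 5 tests (0% of all genes in each, and 0 with DESeq2), with 0, 0, 0, 1 and 1 at an unadjusted p under 0.05. Over all genes the unadjusted counts were 111, 487, 293, 179 and 244. On knockdown the smallest p in each direction were EIF3K (0.31, SE 0.172) and EIF3C (-0.43, SE 0.256) untreated. Upon HU they were EIF3J (0.38, SE 0.187) and EIF5A (-0.20, SE 0.148). For HU in siCTRL cells they were EIF4G1 (0.43, SE 0.22) and EIF2S1 (-0.28, SE 0.141), and in siLSM14A cells EIF3C (0.54, SE 0.282) and EIF3L (-0.29, SE 0.118).

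The ratios themselves differed widely between factors. Within each of the 4 conditions, 13 of 47 genes had a higher CPM in all 3 polysomal than in all 3 total RNA libraries (16.9% of all genes did), and 21 had a lower one (42.1% of all genes), a count that needs no pairing. The low side is thus near the share of all genes and is no trait of these factors. The high side included EIF4G1, EIF6, EIF5A, EIF4A3, 3 of 5 eIF2B subunits and the eIF3 subunits EIF3B, EIF3D, EIF3G, EIF3I and EIF3K. The low side included EIF4A2, EIF4E, EIF4E2, EIF4G2, EIF4G3, EIF1, EIF5, the eIF2 subunits EIF2S1, EIF2S2 and EIF2S3, and EIF3E, EIF3H and EIF3J. EIF3I averaged 0.92 and EIF3E -0.97 on the log2 scale over 12 pairs of libraries, though both are subunits of 1 complex. EIF3F averaged 0.12 and was on neither side.

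**Figure D4:**
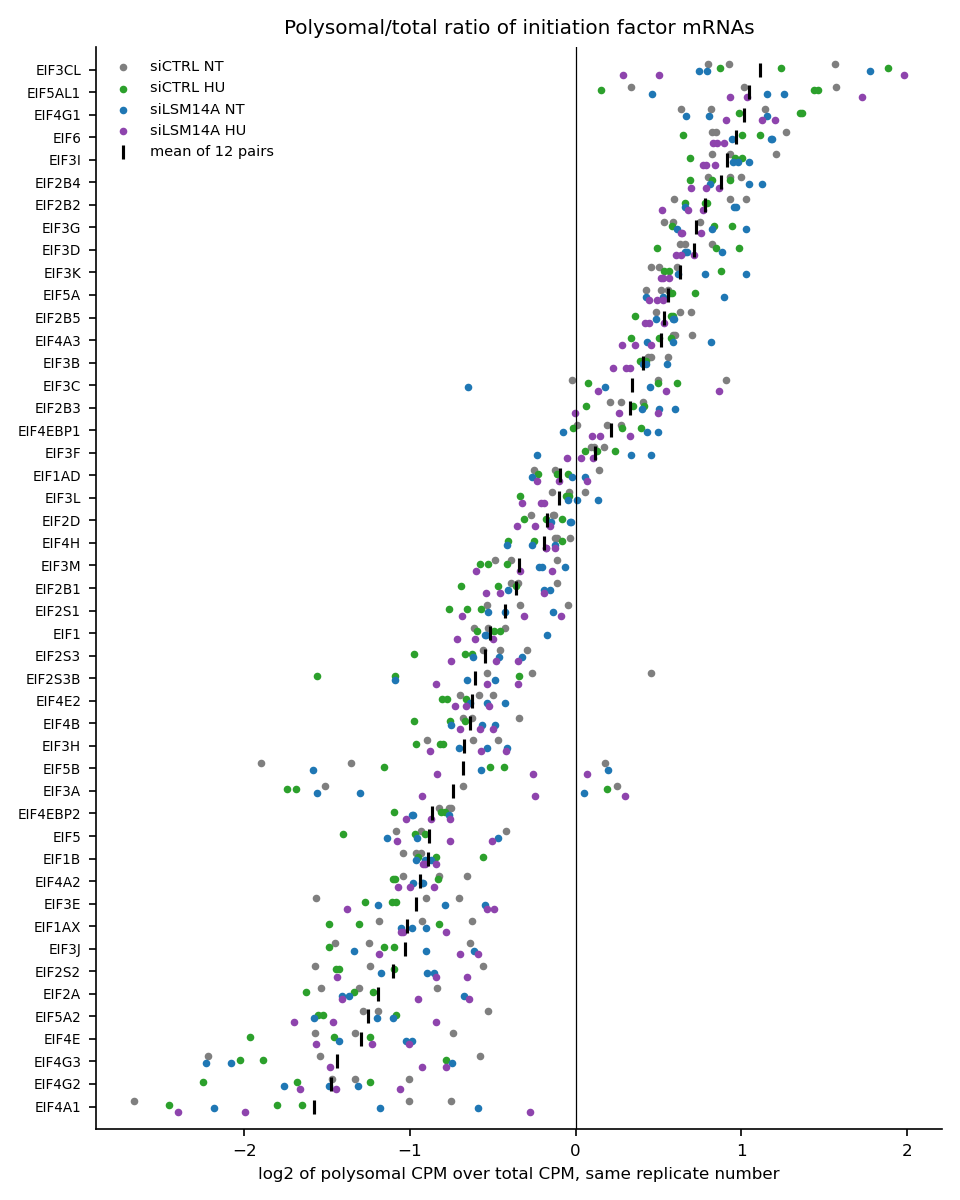
Log2 of polysomal over total CPM for libraries of the same replicate number, for 47 initiation factors ordered by their mean over 12 pairs (black bar). Points are pairs, coloured by condition. EIF4G1 averages 1.01, EIF3F 0.12 and EIF4G2 -1.48.

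The mean ratio over 12 pairs rose with exon GC content, with a Spearman rho of 0.715 over 47 genes and 0.669 over 12855 genes, given as a description across genes that share libraries. The change of ratio on knockdown upon HU ran with GC at -0.636 over the 47 genes and -0.644 over all genes. For HU it ran at 0.566 and 0.550 in siCTRL cells and at -0.463 and -0.293 in siLSM14A cells, and for knockdown in untreated cells at 0.122 and 0.146. EIF3F, at an exon GC of 41.5%, had a mean ratio of 0.12, with single pairs from -0.23 to 0.46. The part of GC content in the ratios was not tested beyond a GC correction, under which no eIF was called for the ratio.

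**Figure D5:**
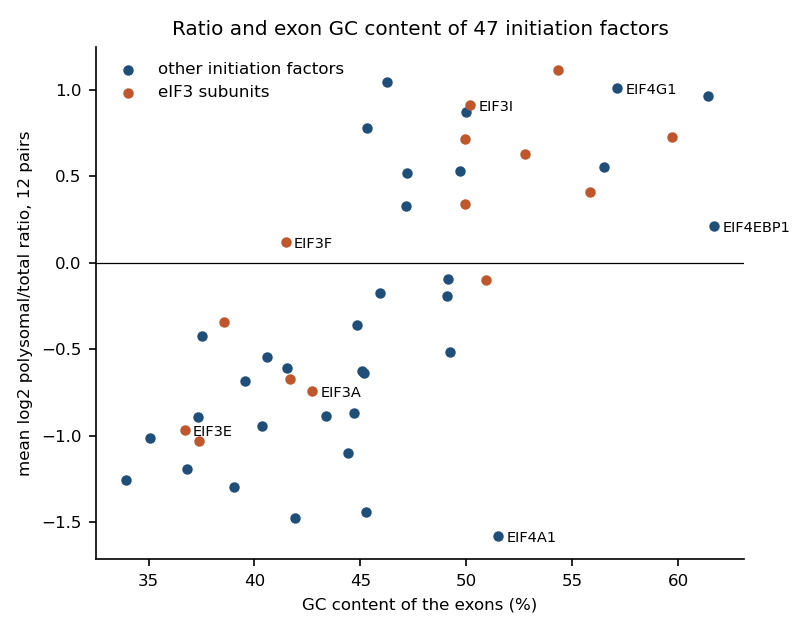
Mean log2 polysomal/total ratio over 12 pairs (y) against GC content of the exons in percent (x) for 47 initiation factors. EIF3F sits at 41.5% and 0.12, and EIF3E, at 36.7%, is at -0.97.

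Levels between genes were compared as CPM per kilobase of canonical transcript in total RNA of untreated siCTRL cells. EIF5A, a factor that eases peptide bond formation at difficult stretches, was highest at 810, and EIF1, which guards start codon choice, followed at 327. Among eIF3 subunits the level per kilobase ran from 0.738 (EIF3CL) and 7.67 (EIF3C) to 308 (EIF3K), and EIF3F was at 29.6. The values of EIF3CL and EIF3C may be too low, as they are near-identical copies. The canonical EIF3F transcript has 6920 bases, so its level per kilobase would be higher if a shorter form is the one expressed. In the other roles the highest and lowest were EIF2S2 (92.6) and EIF2S3B (0.169) for eIF2, EIF2B1 (42.5) and EIF2B3 (14.3) for eIF2B, and EIF4G2 (252) and EIF4G3 (18.9) for the scaffolds. EIF4H (200) and EIF4A3 (68.8) bounded the helicase group, where EIF4A1 was left out for its shared exons, and EIF4EBP1 was at 274. EIF4E2 (110) stood above EIF4E (31.8), with canonical transcripts of 967 and 2427 bases and 107 and 77.2 CPM. The level of EIF4E2 per kilobase would be lower if a longer form is the one expressed. EIF6, which keeps the ribosomal subunits apart, was at 90.4 and EIF5B, which joins them, at 36.1. EIF4E1B had 0 counts in all libraries, which allows up to 0.121 CPM in the shallowest, and EIF4E3 and EIF4EBP3 had 36 and 31 counts over 24 libraries, so these 3 were not tested.

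The wider translation machinery was read from lists of eIF2 kinases and phosphatase subunits, eIF4F regulators, recycling, elongation and termination factors. Of 45 tested genes, 1 was called lower and 0 higher in total RNA of untreated cells, and 2 lower and 0 higher upon HU, against 0.566% and 0.802% of all genes. CDC123, which assembles the eIF2 complex, changed by -0.46 (SE 0.0499, edgeR adjusted p = 0.00173) and -0.57 (SE 0.0555, edgeR adjusted p = 0.000203). MKNK2, a kinase of eIF4E, changed by -0.34 (SE 0.0837, edgeR adjusted p = 0.135) and -0.39 (SE 0.0605, edgeR adjusted p = 0.00736). DESeq2 called its change in untreated cells as well (adjusted p = 0.0218), and the HU call was lost with all 24 libraries in 1 fit (-0.39, adjusted p = 0.999996). None of the 45 was called on polysomes or for the ratio in the knockdown and HU comparisons, where CDC123 was at -0.46 on polysomes upon HU (unadjusted p = 0.00498, edgeR adjusted p = 0.739).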

How the data were processed

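The authors trimmed stranded, poly(A)-selected reads, aligned them to hg19 with STAR 2.6.1a and assigned them to Gencode genes. What they deposited is a table of raw counts for each gene, not normalized. The 24 libraries held 24.8 to 44.9 times 10 to the power of 6 counts (median 34.7), and genes with few counts are limited by counting error. Gene types, positions and transcripts were read from Gencode lifted to hg19. Single ratios join the total and polysomal library of the same replicate number, whose deviations correlated above 0.1 in 8 of 12 pairs (-0.488 to 0.425), and the ratio test does not use this pairing.

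Protein-coding genes were tested with edgeR 4.0.16 in R 4.3.3 (TMM, filterByExpr at a minimum count of 10 and total of 15, quasi-likelihood F-test). P-values were adjusted over all tested genes (Benjamini-Hochberg) and called under 0.05. The ratio test was the fraction-by-condition interaction. The standard error is the log2 change over the square root of F. Xtail, the tool of the study, was not used. The members, lists and 7-base word were chosen with earlier results of these data known. Named are EIF3F, every called member, the member with the smallest p in each direction of each knockdown and HU test, the eIF3 subunits, EIF3F's 5 most alike genes (1 is not reported here) and called genes of the other lists. EIF2B1, EIF4A2 and EIF5A2 were also followed because the block called them.

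Same-numbered samples deviated together in all 3 pairs (correlation above 0.1) for the knockdown upon HU in total RNA (0.556, 0.252 and 0.507). They also did for HU in siCTRL cells in total (0.378, 0.453 and 0.304) and polysomal RNA (0.354, 0.310 and 0.583). A replicate block is warranted there, and not in the other comparisons. The main fits used no block in any comparison, so their standard errors and p-values ignore that pairing, and the counts with the block are given beside them. No 2 replicates agreed within sampling noise (chi-square per gene 6.28 to 126.7 over 24 pairs). Alternatives were RLE size factors, no filter, at least 10 counts in every library, all genes, DESeq2 1.42.0, replicate or culture blocks, GC correction (loess span 0.3), 1 fit of all 24 libraries, and leaving out each replicate. The fits were tried on simulated counts.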

Additional observations from a re-analysis of the deposited data

How the results depend on the processing

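Over 62 values and counts and 983 recomputations, 931 kept their direction and side of the threshold, and EIF3F stayed called lower in total RNA in all of them, between -1.08 and -0.97 untreated and between -1.03 and -0.99 upon HU. The count of initiation factors called in total RNA of untreated cells was 1 with the replicate block and with all 24 libraries in 1 fit, and 1 to 2 when each replicate was left out. Upon HU it was 5 with the replicate block, 4 with block and GC correction, 3 each with DESeq2, no filter and GC correction, all of which called EIF4A2, 1 with all 24 libraries and 1 to 2 when each replicate was left out. The block changed no other count of called members. On polysomes of untreated cells DESeq2 gave 1, as did the fit of all 24 libraries, with EIF3F at -0.91 in both. Upon HU it was 0 to 1 when each replicate was left out, with EIF3F between -1.24 and -1.10. The cause was not tested.

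Directions turned only for small changes that were not called. The EIF3F ratio on knockdown in untreated cells ran from -0.060 to 0.30 with 1 replicate left out. The EIF3F interaction in total RNA was 0.047 with GC correction, 0.051 with block and GC correction and 0.0049 with all 24 libraries, and ran from -0.044 to 0.059 with 1 replicate left out. EIF3F under HU in siLSM14A cells ran from -0.0046 to 0.10, EIF4A2 on knockdown untreated from -0.035 to 0.041, EIF5A2 from -0.059 to 0.12 and EIF4G1 under HU in siCTRL cells from -0.11 to 0.0033. EIF5A2 was at -0.054 with GC correction and at -0.050 with block and GC correction.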
